A study of Homo sapiens with 6 samples.

Results

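The 9 genes described here are HRAS and NRAS, which encode RAS GTPases, and DUSP4, DUSP5, DUSP6, SPRY2, SPRY4, ETV4 and ETV5, which are transcribed in response to ERK. They were chosen by name, and all 9 were found among the 41768 named genes of the expression table. Poly(A)-selected RNA was sequenced from 6 libraries of pancreatic ductal adenocarcinoma (PDAC) cells. In PANC-1, an established human PDAC line, 2 libraries carry the label siALDOA, read here as small interfering RNA against ALDOA, and 1 carries the label NC. The line named 90 in the labels also has 2 siALDOA libraries and 1 NC library. The sources used here do not explain the names 90 and NC, nor do they say if siALDOA 1 and 2 were made with different siRNAs. Separate cultures are not mentioned in any label. All p-values therefore rest on the spread among these 6 libraries, and that spread may be technical in part.

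RAS proteins are membrane-bound switches that, when loaded with GTP, pass growth factor signals to the RAF, MEK and ERK kinases. Active ERK raises the transcription of genes that then damp the same pathway: dual-specificity phosphatases (DUSP) remove the activating phosphates from MAP kinases, and Sprouty (SPRY) proteins act between receptors and RAF. ETV4 and ETV5 are ETS transcription factors of the PEA3 group, induced by receptor and ERK signalling. An activated RAS pathway is typical of PDAC, and transcript levels of the feedback genes are often read as a record of ERK output.

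The 250 bases before the RefSeq start site (assembly GRCh38.p14) are printed for 4 members, the pair of RAS genes and the pair of feedback genes with large differences in opposite directions between the lines. The sequences run 5′ to 3′ on the strand of the gene, which is the minus strand for all 4. The windows of HRAS, DUSP6 and SPRY4 lie within the gene spans that GENCODE v29 gives, and that of NRAS lies partly within its span. The table of promoters held 5 of the 9 members. Capitals mark matches, on either strand, to the ETS motif CCGGAAG, the AP-1 motif TGANTCA, the CRE motif TGACGTCA and the GC box GGGCGG.
HRAS promoter (chr11:535577-535826): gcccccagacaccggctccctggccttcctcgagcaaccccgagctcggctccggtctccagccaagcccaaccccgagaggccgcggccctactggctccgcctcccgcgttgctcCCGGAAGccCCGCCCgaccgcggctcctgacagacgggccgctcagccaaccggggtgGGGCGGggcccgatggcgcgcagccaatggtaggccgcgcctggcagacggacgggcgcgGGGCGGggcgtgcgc
NRAS promoter (chr1:114716772-114717021): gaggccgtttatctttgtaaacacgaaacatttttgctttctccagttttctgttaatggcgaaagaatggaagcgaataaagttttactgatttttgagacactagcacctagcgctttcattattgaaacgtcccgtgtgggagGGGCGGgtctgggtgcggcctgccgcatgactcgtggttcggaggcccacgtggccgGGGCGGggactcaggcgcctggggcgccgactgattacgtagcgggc
DUSP6 promoter (chr12:89352502-89352751): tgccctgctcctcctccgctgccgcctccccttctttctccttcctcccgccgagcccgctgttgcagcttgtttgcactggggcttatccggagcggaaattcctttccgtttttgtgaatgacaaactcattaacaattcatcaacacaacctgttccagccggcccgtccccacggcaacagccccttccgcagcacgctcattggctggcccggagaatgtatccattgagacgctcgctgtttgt
SPRY4 promoter (chr5:142324248-142324497): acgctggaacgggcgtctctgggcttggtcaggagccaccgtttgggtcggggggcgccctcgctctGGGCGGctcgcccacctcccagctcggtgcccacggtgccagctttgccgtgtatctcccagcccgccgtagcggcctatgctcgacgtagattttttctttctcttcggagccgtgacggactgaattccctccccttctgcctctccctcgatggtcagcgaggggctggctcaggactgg
The HRAS window had 77.2% GC, with 1 ETS match and 3 GC boxes. The NRAS window had 54.4% GC and 2 GC boxes. That of SPRY4 had 65.6% GC and 1 GC box, and that of DUSP6 had 57.2% GC and none of these motifs. None of the 4 windows held the AP-1 or CRE letters, and no matches overlapped each other. Of 35116 RefSeq promoter windows of the same length, 8.52% held the ETS motif, 6.57% the AP-1 motif, 1.65% the CRE motif and 42.6% the GC box.

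Values are FPKM, which divide the fragments of a gene by its length in kilobases and by the library's fragments in M (mega), so levels of different genes can be set side by side. Such comparisons between genes are approximate. The lengths used are not given, and levels also shifted between libraries with the GC content of transcripts, as described below. Depth recovered from the step of 1 fragment in short genes was 18.7 M to 21.8 M fragments in PANC-1 and 17.7 M to 19.4 M in 90. ALDOA, the targeted gene, encodes the glycolytic enzyme aldolase A. It had 501.3 and 461.9 FPKM in PANC-1 siALDOA 1 and 2 against 906.4 FPKM in PANC-1 NC, and 262.2 and 317.8 FPKM in 90 siALDOA 1 and 2 against 726 FPKM in 90 NC. The mean of the siALDOA libraries was thus 53.1% of NC in PANC-1 and 39.9% of NC in 90. All 6 epithelial markers reached 1 FPKM in at least 1 library, and their summed level was 3395 to 4360 FPKM in PANC-1 and 4852 to 6643 FPKM in 90. CDH1 (E-cadherin) was low in PANC-1, at 1.18 to 2.05 FPKM against 37.95 to 44.47 FPKM in 90. KRT7 had 6.24 to 11.5 FPKM in PANC-1 against 905.3 to 1350 FPKM in 90, and EPCAM 7.51 to 17.5 FPKM against 88.55 to 153.8 FPKM. KRT19 was lower in PANC-1 as well, while KRT8 and KRT18 were not. The leukocyte markers PTPRC and CD3E did not pass 0.035 FPKM in any library, and none of the 4 acinar markers reached 1 FPKM. One marker each of 5 for leukocytes (CD68), 3 for endothelium (CDH5) and 4 for fibroblasts (COL1A1) reached 1 FPKM. The summed leukocyte markers had 124.7 to 163.1 FPKM in PANC-1 and 31.5 to 51.96 FPKM in 90, those of endothelium at most 0.036 FPKM in PANC-1 and 3.65 to 3.83 FPKM in 90, and those of fibroblasts 10.1 to 14 FPKM in PANC-1 and 1.28 to 1.76 FPKM in 90. Their part in the differences between the lines was not tested. Libraries also differed from the NC library of their line along the GC content of transcripts. Among the 1426 genes of lowest GC (39.6% or less, an eighth of those with a GC value), the median change on the log2(FPKM + 1) scale was -1.02 in PANC-1 siALDOA 1, 0.56 in PANC-1 siALDOA 2, 1.40 in 90 siALDOA 1 and 0.12 in 90 siALDOA 2. Over all tested genes these medians lay between -0.02 and 0.03. Among the members NRAS has the lowest GC content, at 38.4% in its longest transcript.

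Between the lines, DUSP4 and DUSP6 were lower in PANC-1 than in 90, while SPRY4, HRAS and ETV5 were higher. The genes that ERK induces therefore moved in both directions. In bulk RNA, fewer expressing cells and less RNA per cell cannot be told apart. Differences are given as PANC-1 minus 90 on the log2(FPKM + 1) scale, which understates changes of low genes. They come from limma fitted with the line and siALDOA as terms over the 12592 genes that averaged 1 FPKM or more, and a gene is called where its p, adjusted after Benjamini and Hochberg, is under 0.05. All 9 members passed that filter, DUSP4 only through the 90 libraries. By limma, 3 of the 9 members were called higher and 2 lower, against a background of 38.8% of all tested genes called, 20.4% higher and 18.4% lower. At an unadjusted p under 0.05 the numbers were 6 of 9 members and 47.3% of all tested genes. The median difference of the members was 0.35, against 0.13 for all tested genes.

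**Figure D1:**
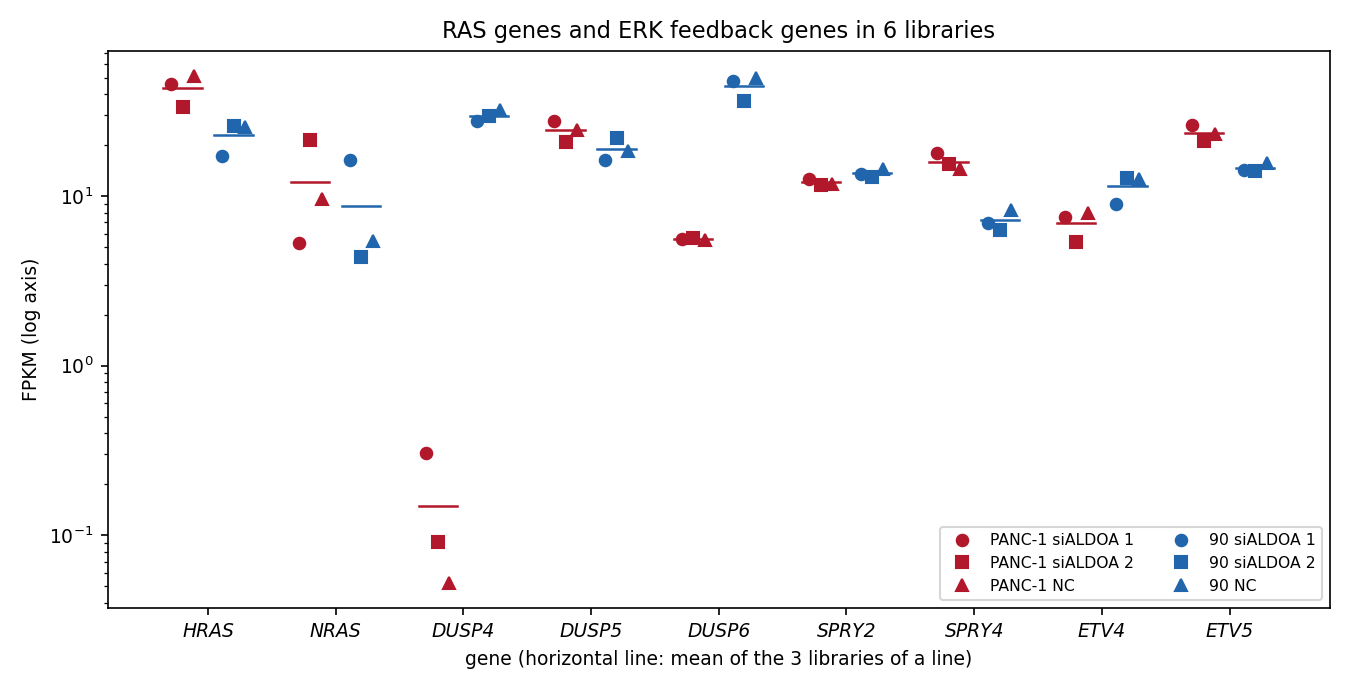
FPKM (log axis) of each of the 9 genes in the 6 libraries, with 1 point per library, PANC-1 in red left of 90 in blue, and a horizontal line at the mean of the 3 libraries of a line. DUSP4 sits at 0.306 FPKM or less in PANC-1 and at 27.7 FPKM or more in 90, and NRAS spreads within both lines.

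HRAS (chr11:532242-537287, minus strand of GRCh38, GENCODE v29) encodes one of the classical RAS GTPases. Its level was 46.1 and 33.4 FPKM in PANC-1 siALDOA 1 and 2 and 51.0 FPKM in PANC-1 NC, against 17.2 and 25.7 FPKM in 90 siALDOA 1 and 2 and 25.65 FPKM in 90 NC. The lowest PANC-1 library was above the highest 90 library. The mean was 43.5 ± 9.10 FPKM in PANC-1 and 22.9 ± 4.89 FPKM in 90 (SD, n = 3 libraries each), 1.90-fold higher in PANC-1. The log2 difference was 0.90 (SE 0.215, limma adjusted p = 0.0267). The call was lost in 6 of 18 alternative settings, among them without 90 NC (limma adjusted p = 0.146), without PANC-1 NC (0.142), without 90 siALDOA 1 (0.0646), without PANC-1 siALDOA 1 (0.0731) and under median-ratio scaling (0.144). With library number as a replicate block the adjusted p was 0.0771.

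NRAS (chr1:114704469-114716894, minus strand), the other RAS gene, had 5.26 and 21.3 FPKM in PANC-1 siALDOA 1 and 2 and 9.62 FPKM in PANC-1 NC, against 16.4 and 4.35 FPKM in 90 siALDOA 1 and 2 and 5.46 FPKM in 90 NC. The lines overlapped, and the highest library was 4.04 times the lowest within PANC-1 and 3.76 times within 90. The mean was 12.05 ± 8.28 FPKM in PANC-1 and 8.73 ± 6.65 FPKM in 90 (SD, n = 3 libraries each). The difference of 0.43 did not pass the test (95% interval -1.27 to 2.14, limma adjusted p = 0.672). With library numbers crossed between the lines as the replicate block, a setting chosen after seeing the data, it passed narrowly (limma adjusted p = 0.0486). It became -0.01 without 90 siALDOA 2 and -0.05 without PANC-1 siALDOA 2. With siALDOA 1 of both lines left out it was 1.39, in a fit that leaves 1 NC and 1 siALDOA library a line. That setting was chosen after seeing the data. It drops the 90 library with the most NRAS and the PANC-1 library with the least, so a larger difference follows from the choice.

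DUSP4 (chr8:29333064-29350668, minus strand) encodes a nuclear phosphatase of MAP kinases and had the largest difference among the members. PANC-1 siALDOA 1 and 2 had 0.306 and 0.0912 FPKM and PANC-1 NC 0.0527 FPKM, against 27.7 and 29.5 FPKM in 90 siALDOA 1 and 2 and 32.2 FPKM in 90 NC. Given the recovered depth and the exon length of 7257 bases in GENCODE, the PANC-1 values correspond to about 48.4, 12.4 and 7.9 fragments, against 3904, 4058 and 4139 in 90. The mean FPKM was 0.1499 ± 0.136 in PANC-1 and 29.8 ± 2.27 in 90 (SD, n = 3 libraries each), 199-fold lower in PANC-1. On the log2 scale the difference was -4.75 (SE 0.183, limma adjusted p = 1.79e-04), and -7.03 with a pseudocount of 0.1 in place of 1. Among 48 genes with at least 50 FPKM in each 90 library and under 1 FPKM in PANC-1 NC, the median level was 0.572% of the 90 mean in PANC-1 siALDOA 1, 0.218% in PANC-1 siALDOA 2 and 0.183% in PANC-1 NC. DUSP4 stood at 1.03%, 0.306% and 0.177% of its 90 mean in these libraries. PANC-1 siALDOA 1 was the highest of the 3 PANC-1 libraries for 45 of the 48 genes and for DUSP4, and the part of this in the DUSP4 values was not tested. The 48 genes were chosen by a low value in PANC-1 NC, which favours higher values in the other PANC-1 libraries.

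DUSP6 (chr12:89347232-89353271, minus strand) encodes the cytoplasmic phosphatase that acts mainly on ERK. Its level was 5.58 and 5.70 FPKM in PANC-1 siALDOA 1 and 2 and 5.53 FPKM in PANC-1 NC, against 47.9 and 36.3 FPKM in 90 siALDOA 1 and 2 and 49.9 FPKM in 90 NC. The PANC-1 libraries lay within a narrow range, far below all 90 libraries. The mean was 5.60 ± 0.0835 FPKM in PANC-1 and 44.7 ± 7.32 FPKM in 90 (SD, n = 3 libraries each), 7.98-fold lower in PANC-1, with a log2 difference of -2.78 (SE 0.168, limma adjusted p = 3.92e-04). DUSP5 (chr10:110497838-110511544, plus strand), a nuclear phosphatase of ERK, had 27.6 and 20.8 FPKM in PANC-1 siALDOA 1 and 2 and 24.7 FPKM in PANC-1 NC, against 16.3 and 22.0 FPKM in 90 siALDOA 1 and 2 and 18.3 FPKM in 90 NC. The lines overlapped. Its difference of 0.35 did not pass the test (95% interval -0.13 to 0.83, limma adjusted p = 0.209), although it did once a GC trend was removed (0.31, limma adjusted p = 0.0401). It also passed with crossed library numbers, a setting chosen after seeing the data (limma adjusted p = 0.0103).

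SPRY4 (chr5:142310427-142326455, minus strand), a Sprouty inhibitor of receptor signalling to RAS and RAF, had 18.01 and 15.6 FPKM in PANC-1 siALDOA 1 and 2 and 14.4 FPKM in PANC-1 NC, against 6.95 and 6.35 FPKM in 90 siALDOA 1 and 2 and 8.33 FPKM in 90 NC. All PANC-1 libraries were above all 90 libraries. The mean was 16.0 ± 1.84 FPKM in PANC-1 and 7.21 ± 1.02 FPKM in 90 (SD, n = 3 libraries each), 2.22-fold higher in PANC-1, with a log2 difference of 1.05 (SE 0.178, limma adjusted p = 0.00878). SPRY2 (chr13:80335976-80340951, minus strand), from the same family, had 12.7 and 11.7 FPKM in PANC-1 siALDOA 1 and 2 and 11.8 FPKM in PANC-1 NC, against 13.4 and 13.0 FPKM in 90 siALDOA 1 and 2 and 14.3 FPKM in 90 NC. These values did not overlap but lay close together. The difference of -0.16 did not pass the test (95% interval -0.50 to 0.19, limma adjusted p = 0.424), and it passed in none of the 18 alternatives.

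ETV5 (chr3:186046308-186110318, minus strand) had 26.3 and 21.1 FPKM in PANC-1 siALDOA 1 and 2 and 23.1 FPKM in PANC-1 NC, against 14.3 and 14.0 FPKM in 90 siALDOA 1 and 2 and 15.6 FPKM in 90 NC. All PANC-1 libraries were above all 90 libraries, with means of 23.5 ± 2.62 FPKM in PANC-1 and 14.6 ± 0.854 FPKM in 90 (SD, n = 3 libraries each). The log2 difference was 0.65 (SE 0.146, limma adjusted p = 0.0225). The call was lost in 10 of 18 alternatives, including each of the 6 that leave out 1 library (limma adjusted p from 0.0571 to 0.120), median-ratio scaling (0.2205) and the replicate block (0.078). ETV4 (chr17:43527844-43579620, minus strand) had 7.48 and 5.38 FPKM in PANC-1 siALDOA 1 and 2 and 7.998 FPKM in PANC-1 NC, against 8.93 and 12.8 FPKM in 90 siALDOA 1 and 2 and 12.5 FPKM in 90 NC. The lines did not overlap, but the difference of -0.64 missed the threshold (95% interval -1.19 to -0.096, limma adjusted p = 0.0689). It passed in 5 of the 18 alternatives, among them GC trend removed (-0.61, limma adjusted p = 0.00528) and TPM (-0.66, limma adjusted p = 0.0377). The others were crossed library numbers and both settings that leave out 2 libraries, all chosen after seeing the data. Some exons of ETV4 overlap DHX8 on the other strand, some of ETV5 overlap DGKG on the same strand, and some of DUSP6 overlap AC024909.2 on the other strand. The sources used here do not say if reads were counted by strand.

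**Figure D2:**
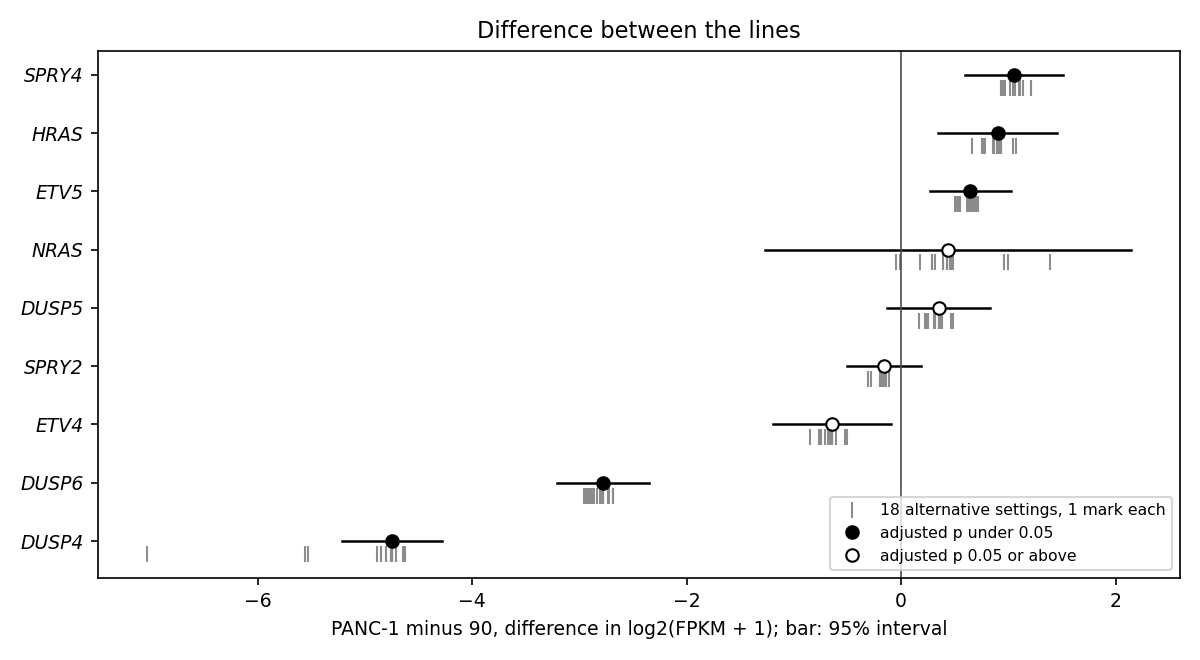
Difference between the lines, PANC-1 minus 90 in log2(FPKM + 1), for each gene, with the 95% interval as a bar and 18 alternative settings as grey marks. DUSP4 (-4.75) and DUSP6 (-2.78) stand apart on the lower side, and the marks of NRAS lie on both sides of 0.

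In all, 7 of the 9 members had values that did not overlap between the lines, as did 54.1% of all tested genes. Ratios taken within a library do not depend on its scaling. The ratio of DUSP6 to SPRY4 was 0.310 and 0.366 in PANC-1 siALDOA 1 and 2 and 0.384 in PANC-1 NC, against 6.89 and 5.72 in 90 siALDOA 1 and 2 and 5.99 in 90 NC. DUSP6 was thus below SPRY4 in every PANC-1 library and above it in every 90 library. The ratio of ETV4 to ETV5 was 0.285 and 0.255 in PANC-1 siALDOA 1 and 2 and 0.346 in PANC-1 NC, against 0.626 and 0.914 in 90 siALDOA 1 and 2 and 0.805 in 90 NC. ETV5 was the more abundant of that pair in all 6 libraries.

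The order of the levels also differed. In PANC-1 the mean was highest for HRAS, followed by DUSP5, ETV5, SPRY4, SPRY2, NRAS, ETV4, DUSP6 and DUSP4. Neighbours in that order whose ranges over the 3 libraries overlapped were DUSP5 and ETV5, SPRY2 and NRAS, NRAS and ETV4, and ETV4 and DUSP6. In 90 the order was DUSP6, DUSP4, HRAS, DUSP5, ETV5, SPRY2, ETV4, NRAS and SPRY4. Overlapping neighbours there were HRAS and DUSP5, ETV5 and SPRY2, ETV4 and NRAS, and NRAS and SPRY4. By the mean, DUSP6 and DUSP4 thus led the order in 90 and closed it in PANC-1, where the range of DUSP6 also overlapped that of NRAS.

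With siALDOA, no member passed the test. Over both lines, 0 of 9 members and 0 of 12592 genes were called by limma (0% of the background), ALDOA included, and 43 genes (0.341%) but no member had an unadjusted p under 0.05. The changes of the members ran from -0.32 for HRAS (95% interval -0.91 to 0.26) to 0.37 for NRAS (-1.44 to 2.18). ETV4 was at -0.25 (-0.83 to 0.33) and DUSP6 at -0.11 (-0.57 to 0.34). The other 5 lay between -0.05 and 0.01, with DUSP4 at 0.01 (-0.49 to 0.51), SPRY2 at -0.04 (-0.40 to 0.33), SPRY4 at -0.04 (-0.53 to 0.44), ETV5 at -0.05 (-0.45 to 0.34) and DUSP5 at 0.00 (-0.50 to 0.51). These intervals leave room for changes in either direction. The median over the 9 members was -0.04 and that over all tested genes 0.01. No member had all 4 siALDOA libraries on one side of the NC library of its line, as 9.21% of all tested genes did.

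Within each line, 0 genes were called by limma as well. In PANC-1, 21 genes (0.167%), none of them a member, had an unadjusted p under 0.05, and 6 of the 9 members were above 0, as were 48.1% of all tested genes. In 90 the number was 33 (0.262%), again with no member, and 2 of the 9 members were above 0, as were 44.7% of all tested genes. For DUSP4, DUSP6 and SPRY4 both siALDOA libraries lay above NC in PANC-1 and below NC in 90. The change of SPRY4 was 0.30 and 0.10 in PANC-1 siALDOA 1 and 2, against -0.23 and -0.34 in 90 siALDOA 1 and 2. For DUSP6 it was 0.01 and 0.04 in PANC-1, against -0.06 and -0.45 in 90, and for DUSP4 it was 0.31 and 0.05 in PANC-1, against -0.21 and -0.12 in 90. A change of sign between the lines of this kind, in either direction, was seen in 9.91% of all tested genes. Tested directly, the effect in PANC-1 minus the effect in 90 was 0.49 for SPRY4 (SE 0.404), 0.35 for DUSP4 (SE 0.459) and 0.27 for DUSP6 (SE 0.424), and the limma adjusted p was 1 for each. By limma 0 genes were called for this difference, and 24 genes (0.191%), none of them a member, had an unadjusted p under 0.05.

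NRAS changed by -0.76 and 1.07 in PANC-1 siALDOA 1 and 2 and by 1.43 and -0.27 in 90 siALDOA 1 and 2. In 90 siALDOA 2 DUSP6 (-0.45) and SPRY4 (-0.34) changed by more, and in the other 3 libraries NRAS had the largest change of the 9 members. The 732 genes within 1 percentage point of its GC content had medians of -0.96 and 0.58 in PANC-1 siALDOA 1 and 2 and 1.35 and 0.04 in 90 siALDOA 1 and 2. NRAS and these genes had the same sign in all libraries but 90 siALDOA 2. With a GC trend removed, the effect of siALDOA on NRAS over both lines was 0.13 (SE 0.202) and the difference between the lines 0.18 (SE 0.190, limma adjusted p = 0.488). HRAS, at the other end of the GC range with 65.8%, changed by -0.14 and -0.60 in PANC-1 siALDOA 1 and 2 and by -0.55 and 0.00 in 90 siALDOA 1 and 2. The 286 genes within 1 point of its GC content had medians of 0.06 and -0.25 in PANC-1 siALDOA 1 and 2 and -0.29 and 0.10 in 90 siALDOA 1 and 2. HRAS was below these medians in all 4 siALDOA libraries, and its difference between the lines with the trend removed was 0.93 (SE 0.0895, limma adjusted p = 8.77e-04).

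**Figure D3:**
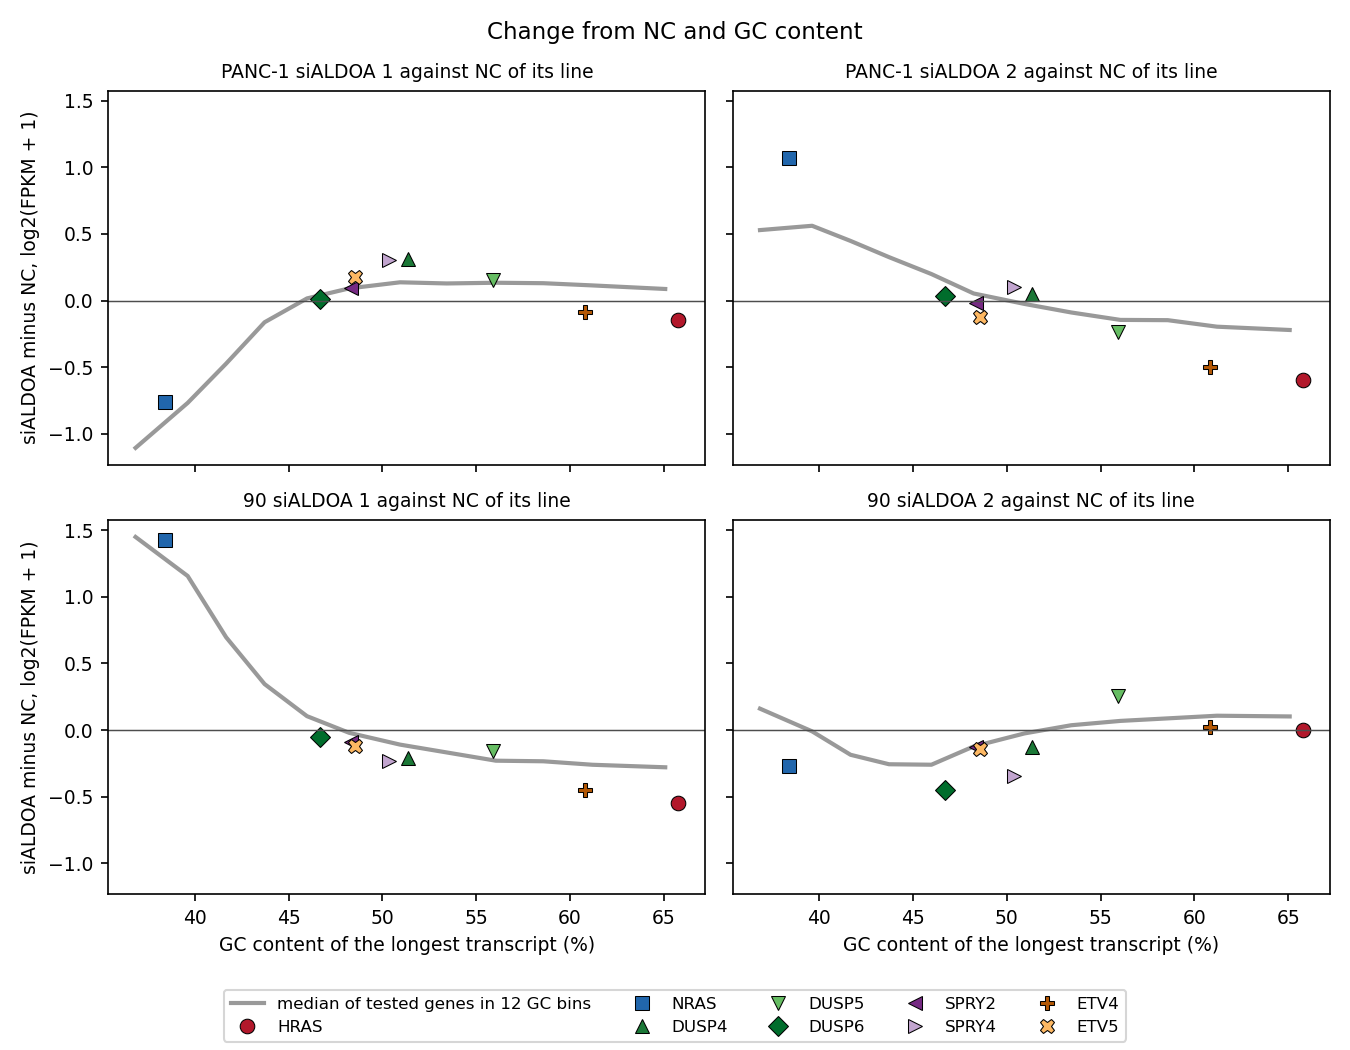
Change relative to NC in log2(FPKM + 1), with each siALDOA library set against its own line, against the GC content of the longest transcript in %, for the 9 genes; the grey line is the median of tested genes in 12 bins of GC content. NRAS moves with the low-GC end of the line in PANC-1 siALDOA 1 and 2 and in 90 siALDOA 1.

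Other genes of the pathway were counted in 6 lists, of 66 genes with 56 tested. Between the lines 13 of the 56 were called higher in PANC-1 and 7 lower by limma, beside the background of 20.4% and 18.4%. The list nearest to the members, other DUSP, SPRY, SPRED, ETV and ERRFI1 genes, had 5 higher and 2 lower of 10 tested, with a median of 0.66 against 0.13 for all tested genes. DUSP10, a phosphatase of the stress-activated kinases p38 and JNK, had 0.393 and 0.160 FPKM in PANC-1 siALDOA 1 and 2 and 0.217 FPKM in PANC-1 NC, against 17.4 and 15.6 FPKM in 90 siALDOA 1 and 2 and 14.4 FPKM in 90 NC (-3.74, limma adjusted p = 2.28e-04). Like DUSP4, it was near 0 in PANC-1 and passed the filter only through the 90 libraries. In the other direction, ERRFI1, an inhibitor of the EGF receptor, had 88.8 and 129.8 FPKM in PANC-1 siALDOA 1 and 2 and 95.2 FPKM in PANC-1 NC, against 18.6 and 8.93 FPKM in 90 siALDOA 1 and 2 and 14.6 FPKM in 90 NC (2.85, limma adjusted p = 0.0022). The nuclear phosphatases DUSP2 (2.46) and DUSP1 (2.07) were also higher in PANC-1, with limma adjusted p = 9.54e-04 and 0.00259. DUSP2 was at most 0.031 FPKM in 90 and passed the filter only through PANC-1. The remaining calls were SPRED2 (1.19) and SPRY1 (1.16) on the higher side and DUSP7 (-1.47) on the lower.

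Other ERK-induced genes gave 4 higher and 3 lower of 13 tested, beside 20.4% and 18.4% of all tested genes, with a median of 0.15. The 7 calls became 4 without PANC-1 NC and 4 without 90 NC. PLAUR, the urokinase receptor, had 5.12 and 3.31 FPKM in PANC-1 siALDOA 1 and 2 and 4.98 FPKM in PANC-1 NC, against 33.2 and 47.7 FPKM in 90 siALDOA 1 and 2 and 48.3 FPKM in 90 NC (-3.01, limma adjusted p = 6.85e-04). HBEGF, a ligand of the EGF receptor, was lower as well (-1.74, limma adjusted p = 0.00156). VGF, a secreted neuropeptide precursor, was higher in PANC-1 (2.74, limma adjusted p = 0.00133), and so was PHLDA1 (1.36, limma adjusted p = 9.06e-04).

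Upstream of ERK, the counts stand beside 20.4% of all tested genes called higher and 18.4% called lower. Of 8 other RAS-subfamily genes 1 was called, MRAS (1.35, limma adjusted p = 0.0044). It had 3.03 and 2.07 FPKM in PANC-1 siALDOA 1 and 2 and 2.05 FPKM in PANC-1 NC, against 0.302 and 0.332 FPKM in 90 siALDOA 1 and 2 and 0.307 FPKM in 90 NC, and passed the filter only through PANC-1. Among RAS activators and adaptors 2 of 6 tested were higher and none lower, the receptor adaptors SHC1 (0.92, limma adjusted p = 0.00817) and GRB2 (0.79, limma adjusted p = 0.0084). Neither was called under median-ratio scaling. Of the 6 RAS GTPase-activating genes tested, DAB2IP was lower (-1.68, limma adjusted p = 0.00284). In the kinase cascade 1 of 13 was higher and 1 lower. PEBP1, the RAF kinase inhibitor protein, had 152.8 and 116 FPKM in PANC-1 siALDOA 1 and 2 and 141 FPKM in PANC-1 NC, against 0.413 and 0.141 FPKM in 90 siALDOA 1 and 2 and 0.377 FPKM in 90 NC (6.71, limma adjusted p = 1.79e-04). This was a larger difference than that of any member, and PEBP1 passed the filter only through PANC-1. MAP2K1, which encodes the ERK kinase MEK1, was lower (-0.52, limma adjusted p = 0.0393). The 2 calls of this list ranged from 1 to 5 over the alternatives, with 1 under median-ratio scaling and 1 with the replicate block. The counts of these upstream lists are small and varied between alternatives, for example from 0 to 6 for the RAS-subfamily genes.

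**Figure D4:**
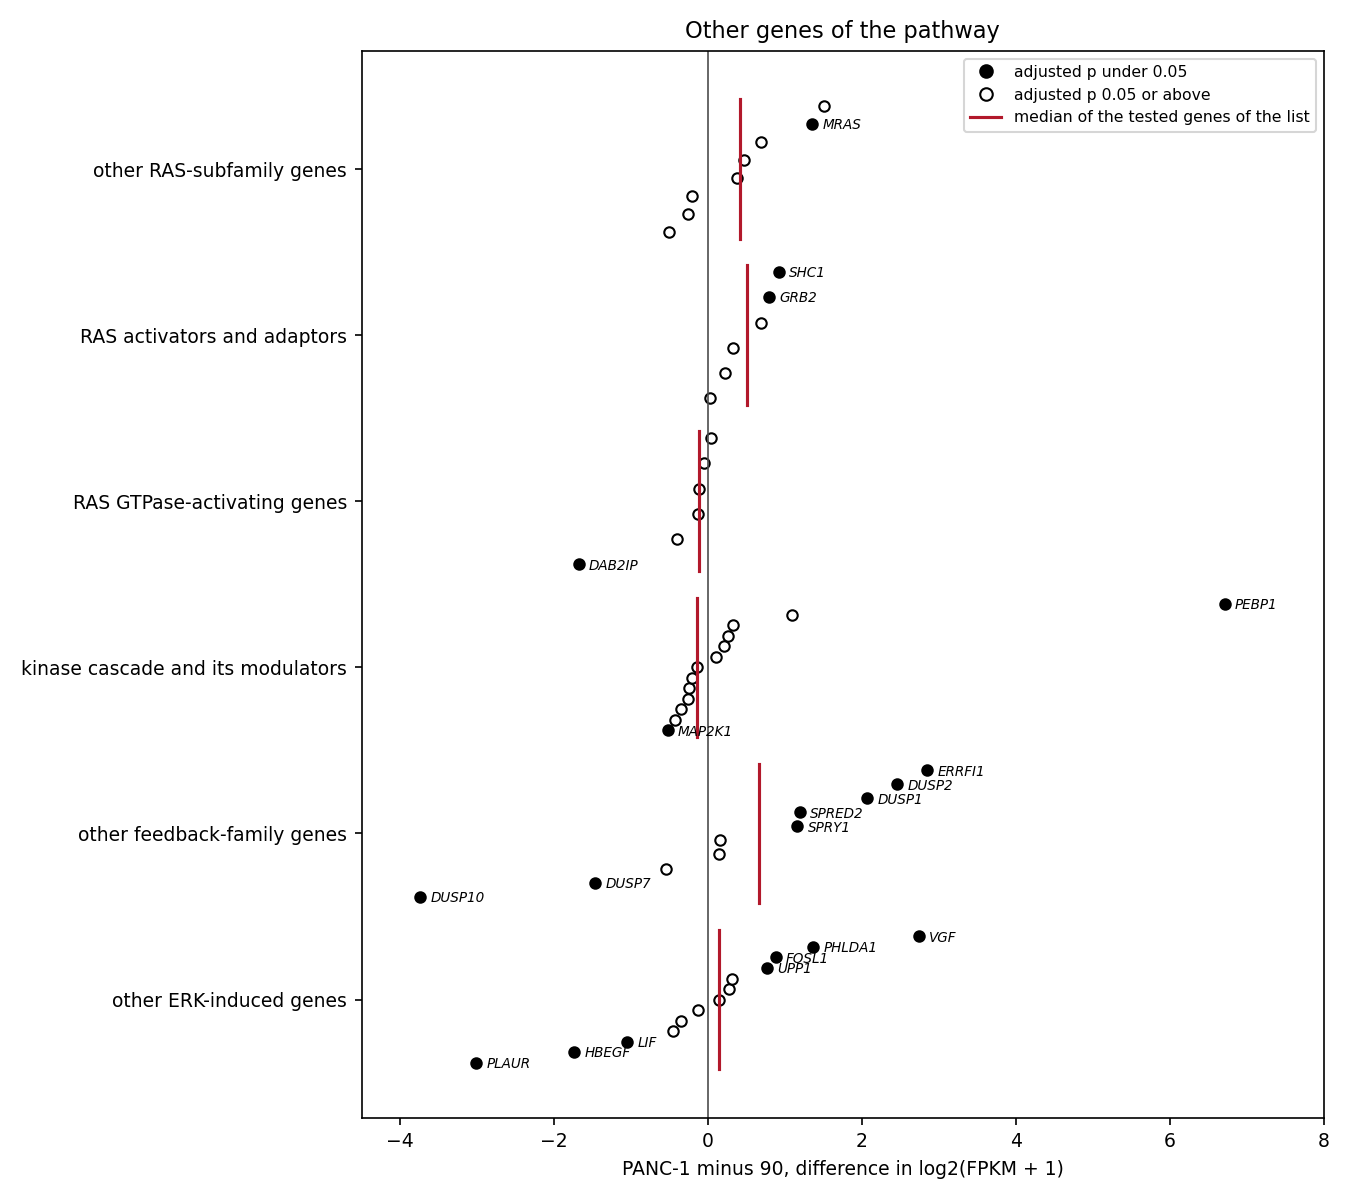
Difference between the lines, PANC-1 minus 90 in log2(FPKM + 1), for the tested genes of the 6 lists, with filled points for an adjusted p under 0.05 and a red line at the median of each list. PEBP1 (6.71) and DUSP10 (-3.74) are the outermost points.

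For siALDOA over both lines, 0 of the 56 tested genes of the 6 lists were called by limma. The smallest unadjusted p were those of FOSL1 (-0.21) and UPP1 (-0.22) among the ERK-induced genes. In the feedback list they were DUSP9 (-0.17) and DUSP10 (0.12), and in the kinase cascade MAP2K2 (-0.17) and MAP2K1 (-0.10). Among RAS-subfamily genes they were RIT1 (0.27) and RALB (0.11), among activators SOS2 (0.49) and FRS2 (0.33), and among GTPase-activating genes RASA1 (0.92) and NF1 (0.74). RASA1 had 0.95 and 7.85 FPKM in PANC-1 siALDOA 1 and 2 against 2.94 FPKM in PANC-1 NC, and 13.6 and 2.01 FPKM in 90 siALDOA 1 and 2 against 0.962 FPKM in 90 NC. In each line the highest library of RASA1, NF1, SOS2 and FRS2 was also that of NRAS. Within PANC-1 all of these genes were lowest in siALDOA 1. The part of GC content in these changes was not tested. The medians of the lists ran from -0.08 for the ERK-induced genes to 0.36 for the activators and adaptors.

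Genes whose profile over the 6 libraries was most like that of a member were ranked by Pearson's r of log2(FPKM + 1), a description in which the difference between the lines takes the largest part. For DUSP4 they were PTGFRN and PDE9A (r = 0.9999 each), and for DUSP6 they were F3 (0.9997) and NID2 (0.9996). For NRAS they were CLASP2 (0.9994) and RAB1A (0.9987), and for HRAS NDUFB9 (0.9987) and NHP2 (0.9985). SPRY4 was nearest to NOL9 (0.9983), DUSP5 to CNPY3 (0.9969), SPRY2 to ND4 (0.9901), ETV4 to NEDD8 (0.9988) and ETV5 to LAT2 (0.9991). With 6 libraries such values are common: from 30 genes for SPRY2 to 1452 genes for DUSP4 had r of at least 0.95.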

How the data were processed

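The authors deposited FPKM values per gene and library. The submitters' processing notes name HISAT2, featureCounts and hg38; the sources used here give no versions or settings and no gene lengths. Of 41769 rows, 1 without a gene name was left out, and 28 symbols had been turned into dates. FPKM are not counts, so limma 3.58.1 (R 4.3.3, trend, two-sided) was fitted to log2(FPKM + 1) of the 12592 genes that averaged 1 FPKM or more. The additive fit (line and siALDOA) left 3 residual degrees of freedom, and the fit of 4 group means, used within lines, left 2. Depth was recovered from low values of short RNAs, of which 96.1% to 97.1% were whole multiples (up to 8, tolerance 0.03). GC content and coordinates came from GENCODE v29, and 90.6% of tested genes had a GC value. The trend was a lowess fit with span 0.3. Median-ratio scaling moved the median of all genes between the lines to 0.02, against 0.13 as deposited. All 9 members are named; of each list, up to 4 called genes with the largest difference, or without calls the 2 with the smallest p, are named, and further ones were chosen after their values were seen. Members and lists were chosen with earlier results of these data known. The additive fit was tested on simulated data with the spread of these libraries, in which 200 of 12592 genes were changed. At a log2 change of 1, 0% of the changed genes were recovered in either comparison. At a change of 2, 68.0% were recovered between the lines and 61.5% for siALDOA, and at 4, 88.5% and 85.5%. In the real data 4882 genes were called between the lines. With so many more than 200 genes changed, the adjustment of p is less strict. The simulated shares therefore do not give the recovery of the comparison between the lines.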

Additional observations from a re-analysis of the deposited data

How the results depend on the processing

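Between the lines, DUSP4, DUSP6 and SPRY4 were called in all 18 alternatives, with differences from -7.03 to -4.63, from -2.96 to -2.69 and from 0.93 to 1.21. Of these genes SPRY4 came closest to losing its call, with a limma adjusted p of 0.0497 under median-ratio scaling. Members called higher numbered 3 in the reported fit, 1 under median-ratio scaling, 1 with the replicate block and 1 to 2 with 1 library left out. Members called lower numbered 2 to 3 throughout. Genes called numbered 4882, 2359 to 4084 with 1 library left out (2359 without 90 NC, 2420 without PANC-1 NC) and 3258 with the replicate block. Of the genes called, those higher in PANC-1 made up 52.6% as reported and 43.0% under median-ratio scaling, and 63.7% without siALDOA 1 of both lines. The library numbers do not pair the samples by any label, and the deviations of same-numbered libraries correlated at -0.859; with the numbers crossed, 7594 genes and 5 members on the higher side were called. Crossed numbers and both settings that leave out 2 libraries were chosen after seeing the data. For siALDOA over both lines, 17 genes and no member were called without siALDOA 1 of both lines; with no filter on low values, 49 genes within PANC-1 and 38 within 90 were called, and no member.

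With 1 library left out, the difference of NRAS between the lines ranged from -0.05 to 1. The siALDOA changes over both lines that reversed sign, none past the test, ranged with 1 library left out from -0.03 to 0.79 for NRAS, -0.17 to 0.18 for DUSP4, -0.09 to 0.09 for DUSP5, -0.25 to 0.02 for DUSP6, -0.11 to 0.04 for SPRY2, -0.29 to 0.20 for SPRY4 and -0.13 to 0.03 for ETV5. Median-ratio scaling gave -0.04 for DUSP4 and -0.03 for DUSP5, quantile normalization -0.03 for DUSP5, and TPM 0.03 for SPRY2, 0.02 for SPRY4 and 0.01 for ETV5. Without siALDOA 1 of both lines DUSP4 was at -0.04, and without siALDOA 1 of 90 and siALDOA 2 of PANC-1 NRAS was at -0.52 and ETV5 at 0.02. The cause of these shifts was not tested. With 1 NC library a line, the spread of NC is assumed to be that of the other libraries.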
